A study of Homo sapiens with 8 samples.

Results

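DEAD-box and DEAH-box RNA helicases are enzymes that use ATP to open RNA duplexes or to strip proteins from RNA, and nearly every step in the life of a messenger RNA (mRNA) or ribosomal RNA (rRNA) uses at least 1 of them. DEAD-box enzymes, most of whose genes are named DDX, mostly open short duplexes locally, whereas many DEAH-box enzymes, most of them named DHX, move along RNA in 1 direction and pull it apart from a distance. The symbol does not follow the motif in every gene. In the nucleus several of them drive the rearrangements of the spliceosome, the machine that removes introns. The genes described here are the protein-coding genes with a DDX or DHX symbol, apart from DDX46, DDX42, DHX15, DDX58 and DHX58, which the rule leaves out. There were 45 of them, 31 DDX and 14 DHX genes, among 17010 genes listed, of which 13068 are protein-coding. All 45 passed the filter on low counts.

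RNA was sequenced from PC3 cells, an established human prostate cancer line, grown in 3D culture in 24-well plates with 3% serum. In 1 arm the cells received pladienolide B at 0.5 µM for 24 h (PlaB), a bacterial macrolide that binds the SF3b complex of the spliceosome and blocks splicing, and their controls received dimethyl sulfoxide (DMSO), for a time not given in the sources used here. In the other arm SF3B2, an SF3b subunit, was knocked down by transfection of small interfering RNA (siRNA) for 72 h (siSF3B2), and the controls received a control siRNA (sictrl). Each of the 4 groups had 2 libraries, and the labels do not say that they came from separate cultures. The p-values therefore rest on the spread between libraries, and that spread may be technical. Because RNA came from whole cultures, fewer cells of a kind and less RNA per cell cannot be told apart.

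Libraries held 35461248 to 72983584 counts, of which the 45 helicase genes took 0.710% and 0.878% with PlaB, 0.495% and 0.498% with DMSO, 0.395% and 0.415% with siSF3B2, and 0.479% and 0.464% with sictrl. The lowest count of any of them was 50, for DDX60 in a PlaB library. The epithelial genes KRT8, KRT18 and EPCAM were listed in all 8 libraries, with EPCAM at 14.9 to 62.9 TPM (a share of transcripts scaled by gene length), and KLK3 was not among the genes listed. SF3B2 itself was at 36.4 and 30.1 CPM (counts scaled to a common library size by TMM) with siSF3B2, against 228 and 228 CPM with sictrl. The replicates were further apart with PlaB than elsewhere: the median absolute log2 ratio between the libraries of a group, over the 45 genes, was 0.55 with PlaB, 0.10 with DMSO, 0.16 with siSF3B2 and 0.10 with sictrl.

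Among the helicase genes are close relatives, and the pair DDX39A and DDX39B is shown because its more abundant member differed between PlaB and the other groups. Both encode helicases of the complex that couples transcription to mRNA export. Their coding sequences are 80.0% identical and share no identical run over 26 bases, so most sequenced fragments can be placed on 1 of the genes. The windows below, 60 bases of coding sequence around the codons of motif II, come from GENCODE release 44 on GRCh38, at coding positions 559 to 618 of DDX39A on chromosome 19 and 562 to 621 of DDX39B on chromosome 6. Capitals mark the 15 bases at which each differs from the other.
DDX39A: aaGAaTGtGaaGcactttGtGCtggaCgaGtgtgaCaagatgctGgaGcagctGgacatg
DDX39B: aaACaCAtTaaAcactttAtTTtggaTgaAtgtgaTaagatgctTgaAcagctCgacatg

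The promoters of DDX60 and DDX60L are shown because these neighbouring genes on chromosome 4 were the helicase genes with the largest falls. Both are induced by interferon and contribute to antiviral defence. Each RefSeq window (GRCh38.p14) runs from 250 bases before the gene's RefSeq start to 50 bases after it, on the minus strand. The windows lie at chr4:168318703-168319002 for DDX60 and chr4:168480443-168480742 for DDX60L. In GENCODE the DDX60L gene extends further upstream, to 168537786, so its window lies inside the gene length used below. Capitals mark matches to the core of the interferon-stimulated response element, searched on both strands as GAAA, any 2 bases and GAAA again, or TTTC, any 2 bases and TTTC again. The matches begin 88 and 53 bases before the start of DDX60, and 80 and 50 bases before that of DDX60L.
DDX60: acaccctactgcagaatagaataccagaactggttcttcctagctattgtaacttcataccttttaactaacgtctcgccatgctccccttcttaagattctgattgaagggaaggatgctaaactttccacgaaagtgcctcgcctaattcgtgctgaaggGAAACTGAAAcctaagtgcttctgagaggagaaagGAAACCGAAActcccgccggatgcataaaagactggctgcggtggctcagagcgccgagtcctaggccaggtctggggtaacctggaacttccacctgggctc
DDX60L: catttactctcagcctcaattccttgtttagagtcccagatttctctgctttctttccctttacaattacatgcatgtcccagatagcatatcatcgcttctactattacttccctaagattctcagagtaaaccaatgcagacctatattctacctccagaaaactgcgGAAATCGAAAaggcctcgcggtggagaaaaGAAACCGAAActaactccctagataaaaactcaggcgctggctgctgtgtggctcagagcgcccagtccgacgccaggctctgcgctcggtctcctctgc

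Of the 41 helicase genes with a promoter in the RefSeq table, DDX60 and DDX60L were the 2 that held this motif. Over all 35116 promoters of the table, 1255 (3.57%) held it. A match is a description of the letters and not evidence of a bound factor.

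In DMSO cells the helicase genes covered a wide range of levels. DDX5, a helicase that regulates splicing and serves as a transcription coactivator, stood highest at a mean of 599.6 TPM and made up 20.97% and 19.9% of the helicase transcripts in the DMSO libraries. It was followed by DDX39B at 238 TPM, DDX3X at 195 TPM, DDX41 at 157 TPM, DDX17 at 146 TPM and DDX39A at 137 TPM. DDX31, DDX52 and DDX28 stood lowest, at 8.77, 8.58 and 6.82 TPM. Summed over the 45 genes, the helicases held 4195 and 6094 TPM in the PlaB libraries, against 2897 and 2972 TPM in the DMSO libraries. In the siRNA arm the sums were 2313 and 2615 TPM with siSF3B2, against 2903 and 2857 TPM with sictrl. The sums of the PlaB libraries lay above all others, and those of the siSF3B2 libraries below all others.

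With PlaB most of the helicase genes changed, more of them upward than downward except when libraries were scaled by their total counts. By edgeR's quasi-likelihood test at a Benjamini-Hochberg adjusted p under 0.05, 24 of 45 were higher, 13 were lower and 8 were not called. Over all 16488 genes tested, 68.0% were called, 32.5% higher and 35.5% lower, so the 37 called helicase genes are read against a table in which most genes moved. DESeq2 also called 24 higher and 13 lower, where it called 67.8% of all 17010 genes. The median log2 fold change of the helicase genes was 0.63, and that of all genes was -0.11. With total-count scaling 17 helicase genes were higher and 19 lower (20.1% and 51.2% of all genes), and the median was -0.23 for helicase genes and -0.97 for all genes. Across 16 settings of the processing, 17 genes were higher in every one, 9 were lower in every one, and the calls of 19 depended on the setting.

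**Figure D1:**
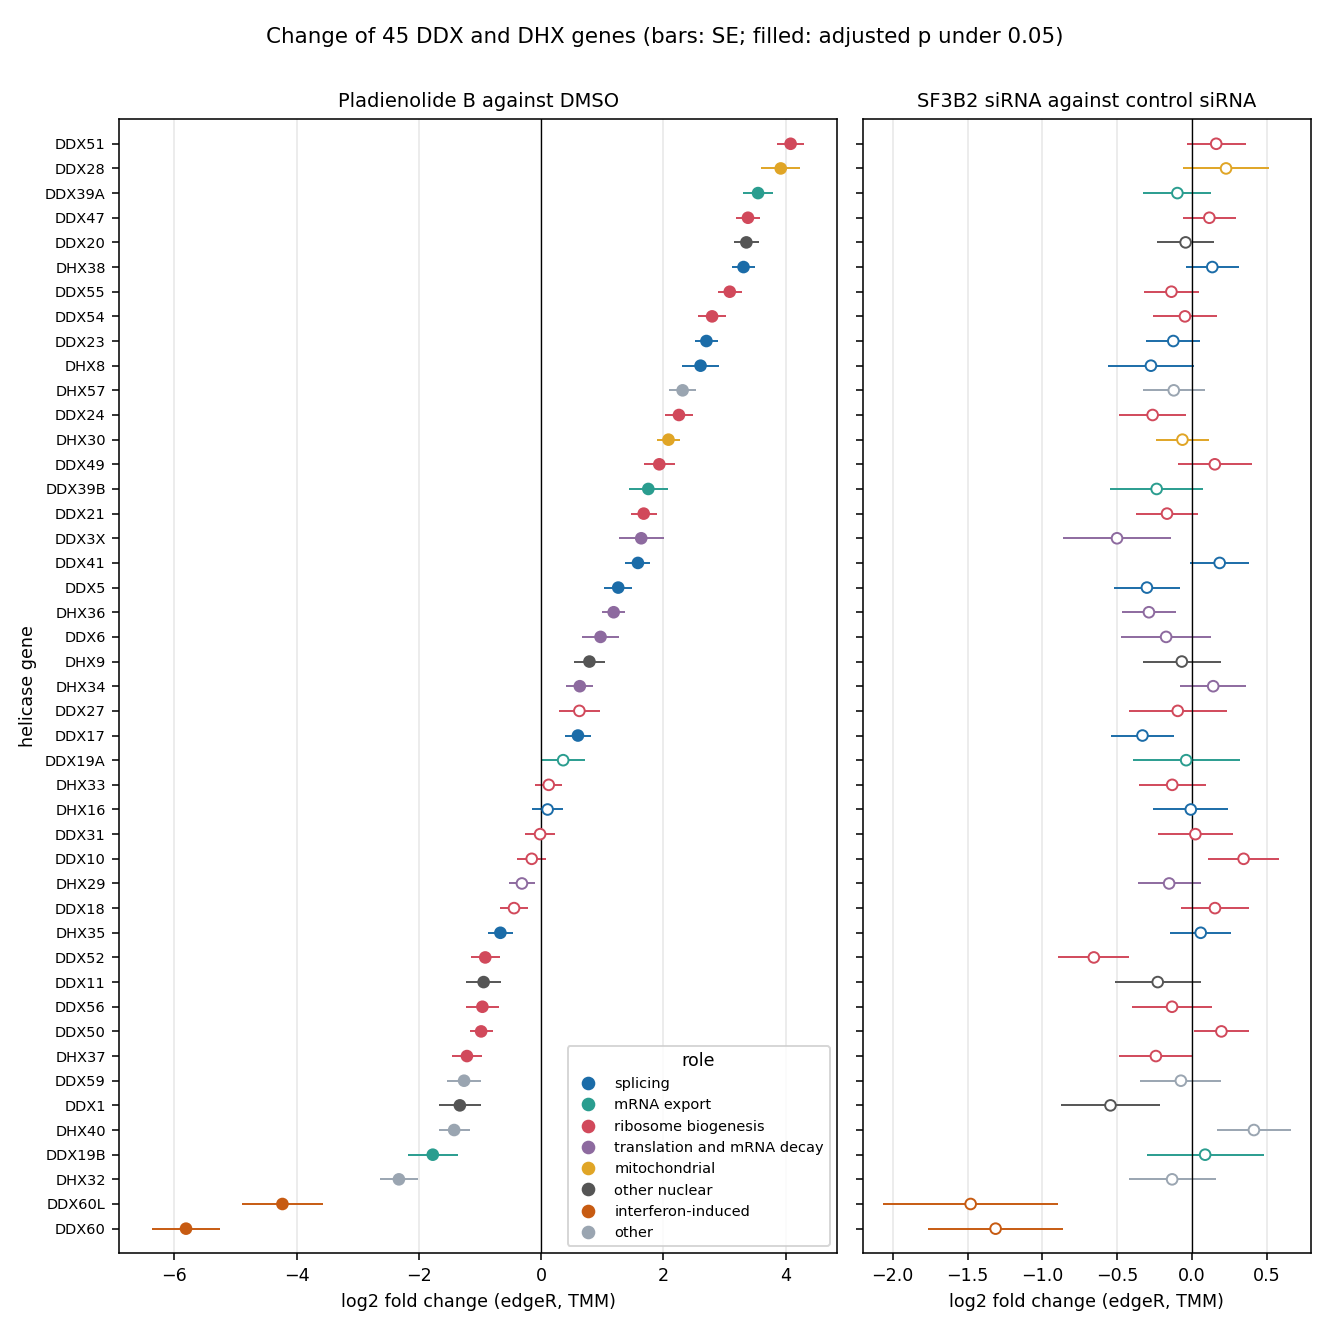
Log2 fold change of each of the 45 helicase genes with pladienolide B against DMSO (left) and with SF3B2 siRNA against control siRNA (right), ordered by the left panel and coloured by role; bars are SE and filled points passed an adjusted p under 0.05. In the left panel 24 genes were called higher and 13 lower (17 and 19 with total-count scaling), from 4.08 for DDX51 to -5.81 for DDX60, and in the right panel, drawn on a narrower axis, none was called.

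The changes were often large. Of the 45 genes, 7 were called with a rise of at least 8-fold and 20 of at least 2-fold (8.61% and 29.0% of all genes), whereas 2 fell at least 8-fold and 8 at least 2-fold (7.36% and 31.9% of all genes). With total-count scaling these counts were 2 and 14 for rises, and 3 and 16 for falls. The shares of all genes at these sizes were not computed with that scaling. At any size, 20.1% of all genes were then called higher and 51.2% lower. The PlaB and DMSO libraries did not overlap for 39 of the 45 genes (86.7%, against 82.7% of all genes). DDX and DHX genes each contained both directions, with 17 higher, 9 lower and 5 not called among the DDX genes, and 7 higher, 4 lower and 3 not called among the DHX genes.

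Spliceosomal and splicing-related helicases were mostly higher with PlaB. Of 8 genes, 6 were higher, 1 was lower and 1 was not called. With total-count scaling 4 were higher, 2 lower and 2 not called. Over all genes tested 32.5% were higher and 35.5% lower, or 20.1% and 51.2% with that scaling. These shares are the background for the counts of each role below. DHX38, which remodels the spliceosome before its second catalytic step, had 601 and 590.1 CPM in the PlaB libraries, against 62.3 and 57.7 CPM in the DMSO libraries. The groups lay far apart and the replicates close together. The log2 fold change was 3.31 ± 0.20 (SE; edgeR adjusted p = 1.75e-05), a 9.93-fold higher level. DHX38 lies on the plus strand of chromosome 16, at 72093613 to 72112912 (GRCh38), and overlaps PMFBP1 and TXNL4B on the other strand.

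DDX23, which helps U6 replace U1 at the 5′ splice site, rose by 2.70 ± 0.19 on the log2 scale. DHX8, which releases the finished mRNA from the spliceosome, rose by 2.61 ± 0.30, with 147 and 263 CPM in PlaB cells and 30.4 and 36.9 CPM in DMSO cells. DDX41, a spliceosome-associated helicase mutated in some myeloid cancers, rose by 1.58 ± 0.20. These 3 genes were called higher in all 16 settings. DHX35, found in catalytic spliceosomes, was the exception in direction, with 18.1 and 15.7 CPM in PlaB cells against 27.6 and 26.1 CPM in DMSO cells. Its log2 fold change was -0.67 ± 0.21 (edgeR adjusted p = 0.0204), a call lost without either DMSO library (adjusted p = 0.108 and 0.0782) and with RLE scaling (0.0607). DHX16, which prepares the spliceosome for its first step, had 50.5 and 77.2 CPM with PlaB and 61.0 and 57.5 CPM with DMSO, so the groups overlapped, and with total-count scaling it was called lower (-0.76, adjusted p = 0.0295).

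DDX5 and DDX17 are paralogues that act both in alternative splicing and in transcription. DDX5 had 2235 and 1891 CPM with PlaB, against 903 and 817 CPM with DMSO, and rose by 1.26 ± 0.23 on the log2 scale (edgeR adjusted p = 0.00143), with 0.39 and no call when libraries were scaled by total counts (adjusted p = 0.141). DDX17 had 356 and 461 CPM with PlaB, against 267 and 269.8 CPM with DMSO. For each gene the PlaB libraries lay above the DMSO libraries. The log2 fold change of DDX17 was 0.60 ± 0.21 (edgeR adjusted p = 0.033), turned to -0.26 when libraries were scaled by total counts, and missed the threshold without PlaB replicate 2 (0.39, adjusted p = 0.0673), either DMSO library (0.145 and 0.14) or either sictrl library (0.0762 and 0.075).

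Among the 4 mRNA export helicases the 2 members of the export complex rose and 1 of the 2 nuclear pore helicases fell, in each scaling tried. DDX39A had 861 and 1213 CPM with PlaB, against 87.6 and 89.5 CPM with DMSO, a log2 fold change of 3.55 ± 0.25 (edgeR adjusted p = 2.21e-05) and an 11.7-fold higher level. DDX39B had 339.8 and 656 CPM with PlaB, against 158 and 137 CPM with DMSO, and its log2 fold change was 1.75 ± 0.32 (edgeR adjusted p = 0.00168). Both PlaB libraries lay above both DMSO libraries for each gene. DDX39B, on the minus strand of chromosome 6 at 31530219 to 31542448, shares its strand with a read-through gene and 2 small nucleolar RNA genes (SNORD84 and SNORD117) and faces DDX39B-AS1, so part of its counts may belong to these.

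Per transcript length, DDX39A made up 69.3% and 62.2% of the sum of DDX39A and DDX39B in the PlaB libraries, against 34.7% and 38.6% in the DMSO libraries. With siSF3B2 the share was 37.5% and 37.5%, against 34.1% and 37.0% with sictrl. DDX39B was thus the more abundant member in 6 libraries and DDX39A in the 2 PlaB libraries, and a difference between the genes was not tested.

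DDX19A and DDX19B release proteins from mRNA at the nuclear pore and lie next to each other on the plus strand of chromosome 16. DDX19B had 3.20 and 8.51 CPM with PlaB, against 19.5 and 20.4 CPM with DMSO. Its log2 fold change was -1.77 ± 0.41 (edgeR adjusted p = 0.00555), -1.24 without PlaB replicate 1 and -2.65 without PlaB replicate 2. DDX19A had 27.8 and 66.3 CPM with PlaB, on either side of the 36.7 and 36.5 CPM with DMSO. Its log2 fold change of 0.36 ± 0.36 was not called, became 0.85 and was called higher without PlaB replicate 1 (adjusted p = 0.00115), and became -0.41 and was called lower without PlaB replicate 2 (adjusted p = 0.0411). The coding sequences of these genes are 95.3% identical with an identical run of 315 bases, so reads may have been split between them and their separate levels are uncertain.

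**Figure D2:**
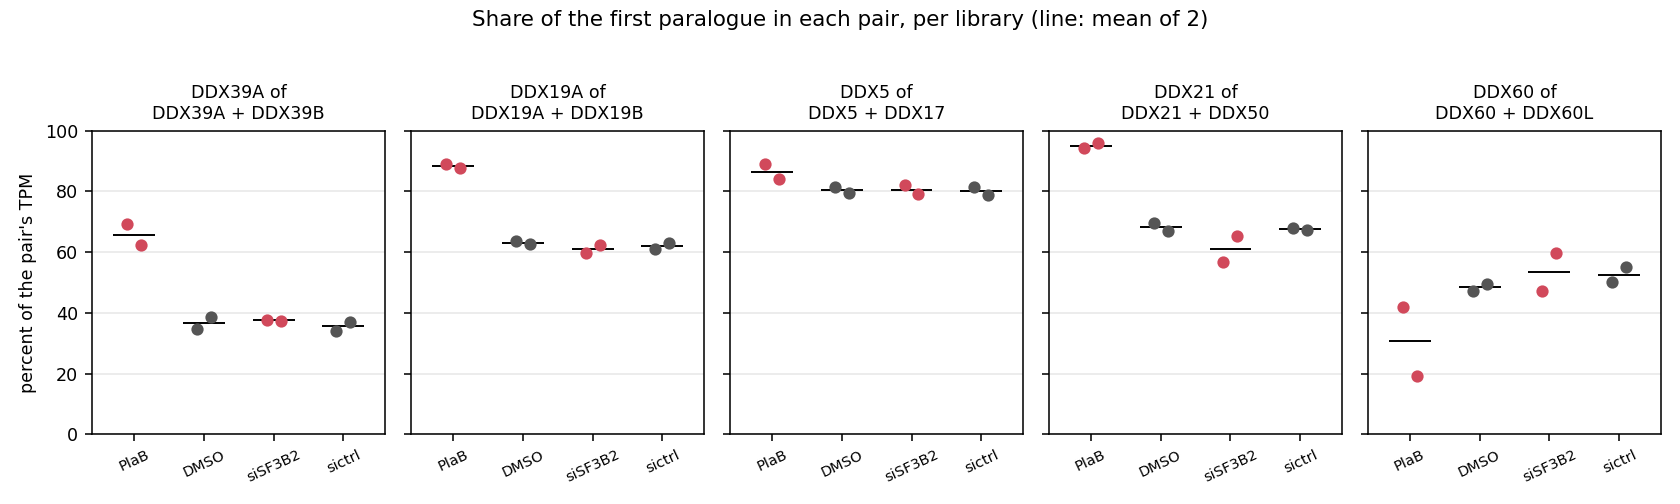
Share of the first-named gene in the summed TPM of each of 5 pairs of related helicase genes, in percent, with 1 point per library. The PlaB points of DDX39A (69.3% and 62.2%), DDX19A (89.0% and 87.7%), DDX5 (89.0% and 84.1%) and DDX21 (94.2% and 95.9%) lie above those of the other 6 libraries. The PlaB points of DDX60 (42.0% and 19.4%) lie below those of the other 6 libraries, but rest on only 0.391 and 1.00 TPM of DDX60. The DDX19A shares are uncertain because reads may have been split between the paralogues.

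Ribosome biogenesis was the role with the most members, and it moved in both directions. Of 16 nucleolar helicases, 7 were higher, 4 were lower and 5 were not called, with 7 higher, 8 lower and 1 not called under total-count scaling. DDX51, which acts on the 3′ end of the large-subunit rRNA, had the largest rise of all 45 genes. It had 643 and 788 CPM with PlaB, against 41.3 and 43.2 CPM with DMSO, a log2 fold change of 4.08 ± 0.22 (edgeR adjusted p = 1.75e-05) and a 16.9-fold higher level. Without either PlaB library the log2 fold change stayed at 3.92 or 4.22. DDX51 is a short gene of 15 exons on the minus strand of chromosome 12, at 132136594 to 132144319.

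DDX47, an early factor of the small subunit, had 428 and 415 CPM with PlaB, against 39.2 and 41.5 CPM with DMSO, a 10.4-fold higher level, and overlaps APOLD1 on its own strand. DDX55 rose 8.50-fold, DDX54 rose 6.95-fold, DDX24 rose 4.78-fold and DDX49 rose 3.82-fold. All of these were called higher in each of the 16 settings. Among the falls, DHX37, which releases the U3 small nucleolar RNA from the small-subunit precursor, had 19.1 and 12.6 CPM with PlaB, against 37.9 and 35.7 CPM with DMSO. Its log2 fold change was -1.21 ± 0.25 (edgeR adjusted p = 0.00326). DDX56 had a log2 fold change of -0.96 ± 0.27 (edgeR adjusted p = 0.0141), a call lost without either DMSO library (adjusted p = 0.057 and 0.056). DDX18, DDX10, DDX31, DHX33 and DDX27 were not called, with log2 fold changes of -0.44 to 0.63. Under total-count scaling DDX18 (-1.31), DDX10 (-1.02), DDX31 (-0.89) and DHX33 (-0.74) were called lower, and without PlaB replicate 2 so were DDX18 (-0.77, adjusted p = 0.00301) and DDX10 (-0.46, adjusted p = 0.0415). DDX27 differed widely between its PlaB libraries, 181 and 84.5 CPM, and had 85.1 and 86.7 CPM with DMSO.

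DDX21 and DDX50 are paralogous nucleolar helicases with neighbouring genes on chromosome 10, and DDX21 takes part in transcription and processing of rRNA. DDX21 had 421 and 399 CPM with PlaB, against 134 and 122 CPM with DMSO, and rose by 1.68 ± 0.21 on the log2 scale (edgeR adjusted p = 0.000245). DDX50 had 18.2 and 16.4 CPM with PlaB, against 34.4 and 33.7 CPM with DMSO, and fell by 0.98 ± 0.19 (edgeR adjusted p = 0.00203). Neither gene's groups overlapped, and the neighbours went opposite ways, also when libraries were scaled by total counts (0.81 for DDX21 and -1.85 for DDX50). DDX21 made up 94.2% and 95.9% of their summed TPM with PlaB, against 69.6% and 66.9% with DMSO.

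**Figure D3:**
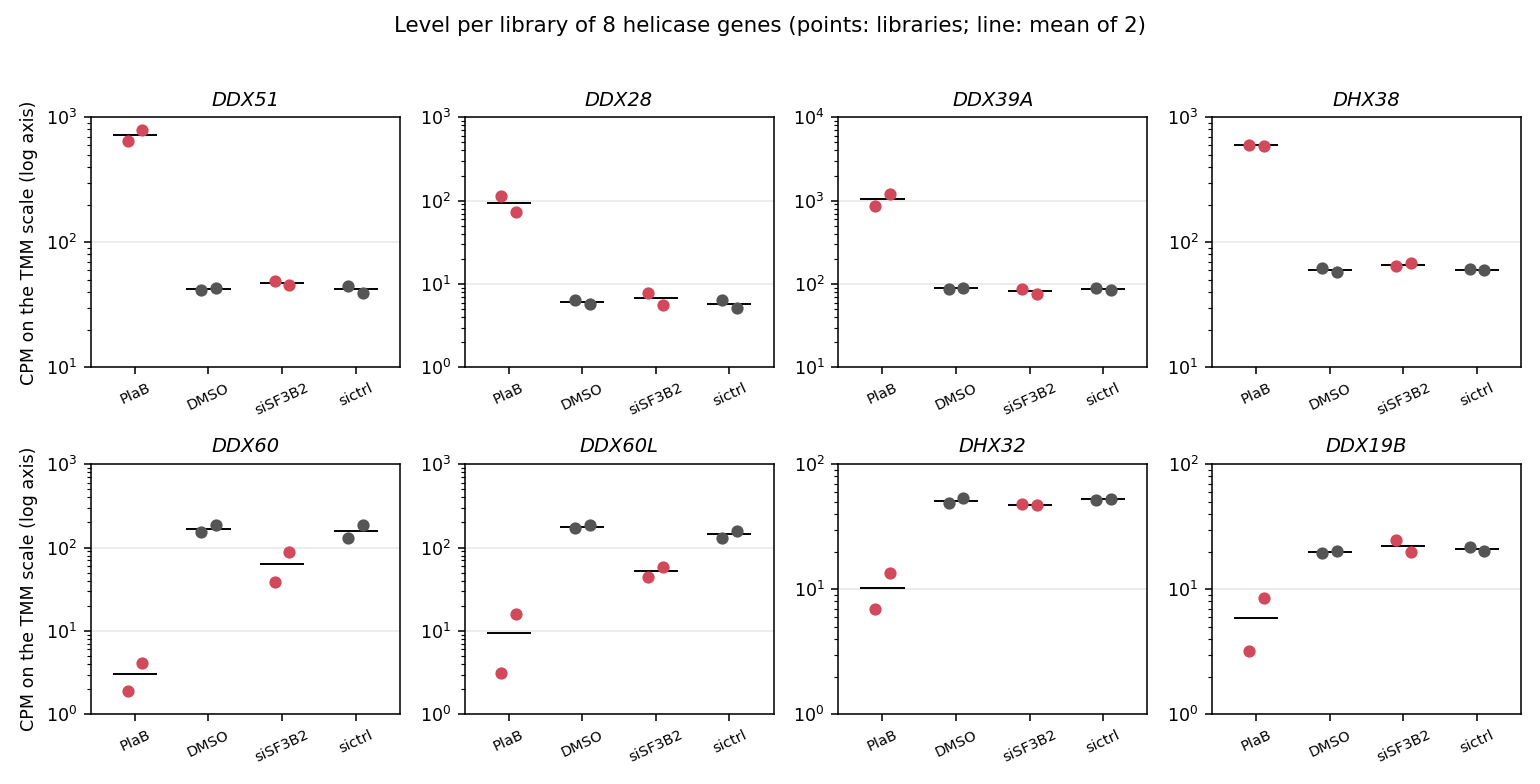
Levels of 8 helicase genes in CPM on a log axis that differs between panels, with 1 point per library and a line at the mean of each group of 2. DDX51, DDX28, DDX39A and DHX38 lie higher in the PlaB libraries than in all others, and DDX60, DDX60L, DHX32 and DDX19B lie lower.

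Of 5 helicases of translation and mRNA decay, 4 were higher and 1 was not called, whereas with total-count scaling none was called higher, 1 was called lower and 4 were not called. The direction of DHX34, which acts in nonsense-mediated decay, turned when libraries were scaled by total counts (0.63 ± 0.22, and -0.23 with that scaling). The DHX34 call (edgeR adjusted p = 0.0342) was lost without PlaB replicate 2, siSF3B2 replicate 1, either DMSO library or either sictrl library (adjusted p from 0.0505 to 0.178). DDX3X, which helps ribosomes start on mRNAs with structured leaders, had 915 and 2007 CPM with PlaB, against 498 and 440.5 CPM with DMSO. The PlaB libraries were both higher but more than 1 log2 unit apart. The log2 fold change of DDX3X was 1.64 ± 0.37 (edgeR adjusted p = 0.00461), 2.09 without PlaB replicate 1, 0.95 without PlaB replicate 2, and 0.78 without a call when libraries were scaled by total counts (adjusted p = 0.0949). DHX36, which unwinds G-quadruplexes, rose by 1.19 ± 0.18 on the log2 scale, with 0.32 and no call under that scaling. DDX6, a translational repressor and decapping activator, had a log2 fold change of 0.97 ± 0.30 (edgeR adjusted p = 0.021), which was 0.12 with total-count scaling (adjusted p = 0.757) and 0.43 without PlaB replicate 2 (adjusted p = 0.0632), and its call was lost without either DMSO library (adjusted p = 0.0582 and 0.126). DHX29, which helps the small ribosomal subunit scan structured leaders, had 17.4 and 16.4 CPM with PlaB, against 19.5 and 22.5 CPM with DMSO, and was not called, but was called lower with total-count scaling (-1.19, adjusted p = 0.00177).

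Both mitochondrial helicases rose. DDX28 and DHX30 take part in assembly of the mitochondrial ribosome. DDX28 had 114 and 72.3 CPM with PlaB, against 6.45 and 5.83 CPM with DMSO, a log2 fold change of 3.92 ± 0.32 (edgeR adjusted p = 3.56e-05) and a 15.1-fold higher level. DDX28 was the one helicase gene with a single exon, 2317 bases on the minus strand of chromosome 16 at 68020916 to 68023232. It overlaps DUS2 on the other strand, and the sources used here do not say whether counting used the strand. DUS2 itself was lower with PlaB (log2 fold change -1.50 ± 0.41, edgeR adjusted p = 0.0121). DHX30, which has 22 exons, had 328 and 322 CPM with PlaB, against 74.4 and 78.8 CPM with DMSO, a log2 fold change of 2.08 ± 0.19 (edgeR adjusted p = 4.66e-05).

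Of the 4 other nuclear helicases 2 were higher and 2 lower, with DHX9 turning sign when libraries were scaled by total counts. DDX20, a part of the SMN complex that assembles small nuclear ribonucleoproteins, had 283 and 347 CPM with PlaB, against 30.3 and 31.2 CPM with DMSO, a log2 fold change of 3.36 ± 0.21 (edgeR adjusted p = 1.83e-05). DDX1, a part of the transfer RNA ligase complex, had 15.3 and 33.2 CPM with PlaB, against 63.1 and 58.7 CPM with DMSO. Its log2 fold change was -1.33 ± 0.34 (edgeR adjusted p = 0.00872), with -0.88 without PlaB replicate 1 and -2.0 without PlaB replicate 2. DHX9, which binds double-stranded and structured RNA, had 94.3 and 157 CPM with PlaB, against 71.6 and 73.3 CPM with DMSO. Its log2 fold change of 0.79 ± 0.26 (edgeR adjusted p = 0.0263) became -0.07 under that scaling, and its call was lost without PlaB replicate 2 (0.37, adjusted p = 0.0674), either DMSO library (0.119 and 0.109) or either sictrl library (0.0526 and 0.0522). DDX11, a DNA helicase of sister chromatid cohesion, had a log2 fold change of -0.94 ± 0.29 (edgeR adjusted p = 0.0202), a call lost without either DMSO library (adjusted p = 0.0525 and 0.0922).

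The interferon-induced helicases had the largest falls. DDX60 had 1.91 and 4.13 CPM with PlaB, against 151 and 186 CPM with DMSO, a log2 fold change of -5.81 ± 0.56 (edgeR adjusted p = 6.72e-05) and a 56.0-fold lower level. DDX60L had 3.17 and 15.8 CPM with PlaB, against 171 and 185 CPM with DMSO, a log2 fold change of -4.23 ± 0.66 (edgeR adjusted p = 0.000721) and an 18.8-fold lower level. The PlaB libraries lay far below the DMSO libraries for both genes, and the 2 PlaB libraries differed more for DDX60L than for any other helicase gene. Without PlaB replicate 1 the log2 fold changes were -5.36 for DDX60 and -3.50 for DDX60L, and without PlaB replicate 2 they were -6.47 and -5.82. Other interferon-induced genes lay on either side of 0 with PlaB, with log2 fold changes of 2.20 ± 0.35 for IFIT1, -0.03 ± 0.28 for ISG15, -1.15 ± 0.48 for DDX58 and -0.93 ± 0.47 for IFIH1. DDX60 and DDX60L each have 38 exons in the annotation, and DDX60L overlaps PALLD on the other strand.

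Of the 4 remaining helicases, which are less well characterised, 1 rose and 3 fell. DHX57 had 113 and 88.6 CPM with PlaB, against 21.3 and 19.1 CPM with DMSO, a log2 fold change of 2.32 ± 0.22 (edgeR adjusted p = 5.71e-05). DHX32 had 6.98 and 13.4 CPM with PlaB, against 48.6 and 53.5 CPM with DMSO, a log2 fold change of -2.33 ± 0.31 (edgeR adjusted p = 0.000311), and overlaps BCCIP on the other strand. DHX40 and DDX59 fell by 1.42 ± 0.25 and 1.26 ± 0.28 on the log2 scale. All 4 kept these calls in the 16 settings.

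Gene length ran alongside the direction of change. Across the 45 helicase genes the Spearman correlation between the log2 fold change with PlaB and the annotated length of the gene was -0.52, and it was -0.32 across 12824 protein-coding genes. With exon number it was -0.26 across the helicase genes and -0.27 across protein-coding genes. Genes are not independent replicates, all points share the same libraries, and length and exon number go together, so these values describe the table. Of 21 helicase genes under 30 kb (a limit chosen with the values known), 15 were higher and 1 was lower, with a median log2 fold change of 1.75. Of 24 genes of 30 kb or more, 9 were higher and 12 were lower, with a median of -0.49. Among protein-coding genes the shorter class had 2360 higher and 1808 lower of 6137, and the longer class 1426 higher and 3351 lower of 6687. DDX56, at 9248 bases, was the short gene called lower with TMM scaling, and DHX8, at 126474 bases, and DHX57, at 78206 bases, were long genes that rose. With total-count scaling DDX18, DHX16 and DHX33, also under 30 kb, were called lower as well. The short genes DDX5 and DDX17 were then not called. Counts per length class were not computed with that scaling.

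**Figure D4:**
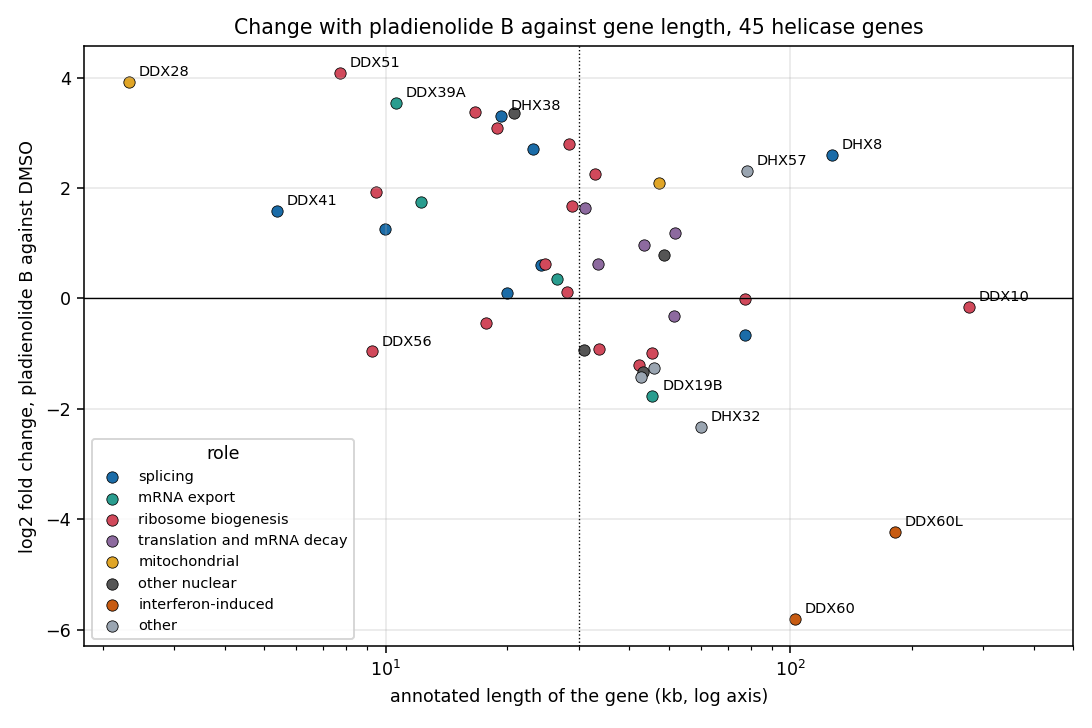
Log2 fold change with pladienolide B against DMSO for each of the 45 helicase genes, against annotated gene length in kb on a log axis, coloured by role, with a dotted line at 30 kb. With TMM scaling, 15 of the genes left of the line were called higher and 1 lower, and of those right of it 9 were called higher and 12 lower. With total-count scaling more genes left of the line were called lower (DDX18, DHX16 and DHX33).

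With siSF3B2 no helicase gene was called. By edgeR, 0 of 45 passed, as did 0% of all 16488 genes tested. An unadjusted edgeR p under 0.05 was found for 3 of 45, against 638 of all 16488 genes. By DESeq2 the count of called helicase genes was also 0, against 33 of 15031 genes with an adjusted p in the table (0.220%). The log2 fold changes ran from -1.48 to 0.41 with a median of -0.10. Of the 45, 31 were negative, against 7953 of all 16488 genes. SF3B2 itself missed the threshold in the same fit, with a log2 fold change of -2.78 ± 0.24 (edgeR adjusted p = 0.0513), so the absence of calls does not show that levels were equal. The siSF3B2 and sictrl libraries did not overlap for 26 of 45 genes, 8 above and 18 below (57.8%, against 39.1% of all genes).

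The interferon-induced pair again had the most negative values. DDX60L had 44.6 and 58.9 CPM with siSF3B2, against 132 and 157 CPM with sictrl, a log2 fold change of -1.48 ± 0.58. DDX60 had 39.0 and 87.4 CPM with siSF3B2, against 129 and 184 CPM with sictrl, a log2 fold change of -1.31 ± 0.45 that was -0.85 without siSF3B2 replicate 1 and -2.01 without siSF3B2 replicate 2. The siSF3B2 libraries lay below the sictrl libraries for both genes. Their unadjusted p-values were 0.0359 and 0.02 by edgeR across all genes, and neither passed the adjustment (adjusted p = 1.00 for both). Other interferon-induced genes were also negative with siSF3B2, without a call, with log2 fold changes of -1.75 ± 0.34 for IFIT1, -1.46 ± 0.48 for DDX58, -1.34 ± 0.47 for IFIH1 and -0.94 ± 0.29 for ISG15.

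The 3 genes that followed in size were DDX52, DDX1 and DDX3X. DDX52, whose yeast relative Rok1 acts in small-subunit assembly, had 12.6 and 12.5 CPM with siSF3B2, against 19.9 and 19.6 CPM with sictrl, a log2 fold change of -0.66 ± 0.24 (edgeR unadjusted p = 0.0246). With PlaB it had 9.19 and 13.5 CPM, against 22.1 and 20.7 CPM with DMSO, and was called lower (-0.91 ± 0.24, edgeR adjusted p = 0.00985), a call lost without DMSO replicate 1 (adjusted p = 0.0585). DDX1 had 45.7 and 39.0 CPM with siSF3B2, against 62.6 and 61.0 CPM with sictrl (-0.55 ± 0.33). DDX3X had 285 and 346 CPM with siSF3B2, against 474 and 419 CPM with sictrl (-0.50 ± 0.36), and so stood on the other side of its control than with PlaB. DDX3X was not alone in this. DDX5 had 719 and 679 CPM with siSF3B2, against 909 and 815 CPM with sictrl. DDX17 had 203 and 233 CPM with siSF3B2, against 268 and 280 CPM with sictrl. The log2 fold changes of DDX5 and DDX17 with siSF3B2 were -0.30 ± 0.22 and -0.33 ± 0.21, and neither was called. With total-count scaling DDX17 lay below its control with PlaB too (-0.26). DDX5 (0.39) and DDX3X (0.78) stayed above theirs with PlaB in that scaling, without a call.

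Genes with large rises with PlaB lay near their control levels with siSF3B2. DDX39A had 86.9 and 76.4 CPM with siSF3B2, against 89.9 and 84.9 CPM with sictrl. DDX39B had 141 and 124 CPM with siSF3B2, against 171 and 141 CPM with sictrl. DDX51 had 48.9 and 45.8 CPM with siSF3B2, against 45.0 and 39.7 CPM with sictrl. DDX28 had 7.86 and 5.6 CPM with siSF3B2, against 6.35 and 5.17 CPM with sictrl, with the libraries interleaved.

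The difference between the effects of PlaB and siSF3B2 was tested directly, and these contrasts share no control library. By edgeR, 21 of 45 helicase genes had a higher effect with PlaB and 8 a lower one, where 53.7% of all genes were called (25.2% higher and 28.5% lower). With total-count scaling the balance turned, with 15 higher and 17 lower, against 14.9% and 44.4% of all genes. The log2 effect with PlaB exceeded that with siSF3B2 by 3.92 ± 0.29 for DDX51 (edgeR adjusted p = 0.000131), by 3.70 ± 0.42 for DDX28 (0.000343) and by 3.65 ± 0.33 for DDX39A (0.000167). For DDX60 the difference was -4.50 ± 0.67 (edgeR adjusted p = 0.00106), so its fall was larger with PlaB. For DDX60L it was -2.75 ± 0.83 (edgeR adjusted p = 0.0242), a call lost when any 1 DMSO, siSF3B2 or sictrl library was left out (adjusted p from 0.0503 to 0.083). For DDX3X it was 2.14 ± 0.51 (edgeR adjusted p = 0.00887). The difference for DDX52 was -0.26 ± 0.34 and was not called.

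The control groups of the arms gave the background for these comparisons. Between sictrl and DMSO no helicase gene was called by edgeR or DESeq2, and 0% of all genes were called by edgeR. Of the 45, 0 had an unadjusted edgeR p under 0.05, against 152 of all 16488 genes. The log2 fold changes lay between -0.54, for DDX10, and 0.24.

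RNA helicases outside the DDX and DHX names moved in both directions with PlaB as well. Of 19 that were listed, 12 were higher, 4 were lower and 3 were not called, with a median log2 fold change of 1.45. Over all genes 32.5% were higher and 35.5% lower. With total-count scaling 8 of the 19 were higher and 5 lower, against 20.1% and 51.2% of all genes. SUPV3L1, a mitochondrial helicase of RNA decay, averaged 1361 ± 670 CPM with PlaB and 64.5 ± 3.95 CPM with DMSO (SD, n = 2 libraries each), a log2 fold change of 4.40 ± 0.39. EIF4A1, EIF4A2 and EIF4A3, of translation initiation and the exon junction complex, rose by 1.71, 2.11 and 2.37 on the log2 scale, and SNRNP200, which unwinds U4 from U6 in the spliceosome, rose by 2.05. MTREX, the helicase that feeds the nuclear exosome, and YTHDC2, a helicase that binds methylated RNA, fell by 1.95 and 2.48. With siSF3B2 none of the 19 was called by edgeR.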

How the data were processed

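The authors deposited 1 table of the series, with a whole-number read count, not normalized, per gene and library. The same deposited table holds TPM, the authors' log2 values scaled by 1 constant per library, and the authors' comparisons as a score (a signed fold change) with p-values from a test not stated. FPKM columns, 8 in number, were not used. The submitters' processing notes name build GRCh38, edgeR, Bowtie2 2.3.5.1, HISAT2 2.10 and Trimmomatic 0.38. They do not name the counting program or its strand setting. The table lists genes with at least 1 read in every library.

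Counts of all 8 libraries entered 1 fit in R 4.3.3 with edgeR 4.0.16 (robust quasi-likelihood F-test, TMM, filterByExpr at a minimum count of 10), with 4 residual degrees of freedom and 16488 genes. Tests were two-sided, adjusted over all genes and called under 0.05. The scripts were tested on simulated data. Positions, exons and coding sequences came from GENCODE release 44. Replicates differed beyond sampling noise (chi-square per degree of freedom 54.0 to 295). The helicases, their role groups and the list of other helicases were chosen with earlier results of these data known. Full values with PlaB and DMSO are given for the largest rise and fall per role, the paralogue pairs and the gene with 1 exon. The 5 largest changes with siSF3B2 have full values in both arms. For the others, values in the siRNA arm are given only as examples. Values of other members are given as ranges or examples chosen after their values were seen. Alternatives were RLE, total-count and the authors' scaling, DESeq2 1.42.0, no filter, the compared groups alone, a replicate block, and leaving out each library.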

Additional observations from a re-analysis of the deposited data

How the results depend on the processing

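With PlaB, 37 helicase genes were called, 36 with RLE scaling or total-count scaling, 35 with the authors' constants or no filter, 37 with DESeq2 (24 higher, 13 lower), 31 with the compared groups alone, and 29 to 38 with 1 library left out. With the compared groups alone the calls of DDX6, DDX11, DDX17, DHX9, DHX34 and DHX35 were lost. With the authors' constants, and with no filter, the calls of DDX17 and DHX34 were lost (edgeR adjusted p from 0.0503 to 0.0512). The authors' deposited adjusted p-values for these 2 genes, from a test not stated, were 0.109 and 0.0938. The replicate numbers give only 2 pairs and no label says what they mark; deviations of same-numbered libraries correlated at 0.118 to 0.429 between groups. With the replicate block the count was 37, and for the difference between the effects 30 against 29 (32 with total-count scaling). Leaving out 1 library gave 24 to 36 for that difference and 14 to 18 of the other RNA helicases, against 16 (13 with total-count scaling). With siSF3B2, and between sictrl and DMSO, the count was 0 in every setting run. The difference could not be fitted with the compared groups alone. Log2 fold changes with PlaB that turned sign, none of them past the threshold unless given, were as follows. Total-count scaling gave -0.0711 for DHX9, -0.76 for DHX16 (adjusted p = 0.0295), -0.23 for DHX34, -0.26 for DDX17, -0.50 for DDX19A, -0.26 for DDX27 and -0.74 for DHX33 (adjusted p = 0.0209). It also called DDX10, DDX18, DDX31 and DHX29 lower. RLE scaling gave 0.00018 for DDX10 and 0.15 for DDX31, DESeq2 gave 0.079 for DDX31, and the compared groups alone gave 0.0302 for DDX31. Without PlaB replicate 1 and without PlaB replicate 2, the extremes of leaving out 1 library, DDX10 was at 0.0892 and -0.46, DDX27 at -0.0298 and 1.06, DHX16 at 0.37 and -0.24, DDX19A at 0.85 and -0.41, DHX33 at 0.30 and -0.0967, and DDX31 at -0.35 and 0.24. Of these, DDX10 was called lower and DDX27 higher without PlaB replicate 2 (adjusted p = 0.0415 and 0.000632), and DDX19A was called both ways (adjusted p = 0.00115 and 0.0411). With 2 libraries per group a single library can decide a call, and the low counts of DDX60 in PlaB libraries limit the size of its fall. The cause of these shifts was not tested. Leaving out a library changes both the number of samples and which libraries remain.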

Other observations

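Several helicase genes share a start region with a gene on the other strand, whose start lies at most 1000 bases away, and the members of such pairs moved together in some cases and apart in others with PlaB. In 10 such pairs both genes were tested. TXNL4B, 227 bases from DHX38, rose by 3.05 ± 0.28 on the log2 scale (edgeR adjusted p = 6.03e-05) beside a rise of 3.31 for DHX38, and CEP95, 688 bases from DDX5, rose by 1.42 ± 0.29. RITA1, 243 bases from DDX54, rose by 1.00 ± 0.29 beside 2.80 for DDX54.

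Other partners lay on the other side of 0. DUS2 (52 bases from DDX28), MORN2 (42 bases from DHX57) and NOC4L (138 bases from DDX51) had log2 fold changes of -1.50, -0.73 and -0.82 (edgeR adjusted p = 0.0121, 0.0387 and 0.0295), where their helicase neighbours rose by 3.92, 2.32 and 4.08. GTF3C4, 481 bases from DDX31, rose by 4.23 ± 0.25 where DDX31 had -0.02 and was not called, and MTREX, 295 bases from DHX29, fell by 1.95 where DHX29 had -0.31 and was not called. COPE beside DDX49 and IFI27L1 beside DDX24 were not called. DUS2 overlaps DDX28, TXNL4B overlaps DHX38, CEP95 overlaps DDX5 and GTF3C4 overlaps DDX31. The counts within each of these pairs could be mixed if counting ignored the strand, also where both genes rose. These partners were examined after the helicase values were seen.

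The palindrome TGACGTCA, the binding sequence of CREB and ATF proteins, was found in the promoters of 5 of the 41 helicase genes with a RefSeq promoter, DDX10, DDX19A, DDX28, DDX51 and DHX36, and in 649 of all 35116 promoters (1.85%). Among these 5 genes DDX28, DDX51 and DHX36 were called higher with PlaB, the last not under total-count scaling. DDX10 and DDX19A were not called, but DDX10 was called lower under total-count scaling (-1.02). Over all genes 32.5% were higher and 35.5% lower, or 20.1% and 51.2% with that scaling. A match to this motif is likewise no evidence of a bound factor, and a link to the changes was not tested.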
